A study of Mus musculus with 12 samples.

Results

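The heat shock chaperones described here are 10 genes, *Hspa1a*, *Hspa1b*, *Hspa8*, *Hsph1*, *Dnajb1*, *Hsp90aa1*, *Hsp90ab1*, *Hspb1*, *Hspd1* and *Hspe1*, measured by RNA-seq in sorted glomerular endothelial cells (GEC) of the mouse. They were chosen by gene name, and 10 of 10 were found among the 17811 genes counted in dim tdT GEC and among the 17521 genes counted in bright tdT GEC (15768 genes were in both tables). The 12 libraries form 4 groups of 3, WT-dim, AS-dim, WT-bright and AS-bright, from 3 wild type (WT) mice and 3 mice with Alport syndrome (AS, genotype Col4a5 -/-), each mouse giving 1 dim and 1 bright library. All 6 mice were C57BL/6, 4 months old, and carried the TekCre tdTomato reporter, in which the *Tek* promoter drives Cre and Cre switches on the red protein. Kidney cortex was minced and digested with enzymes, glomeruli were collected on a sieve and digested again, and single cells were sorted into a dim and a bright fraction by the red signal. Tek-driven Cre is known to be active in endothelial cells and also in part of the blood cell lineage. The cells of 1 fraction were sequenced in bulk, so that fewer cells of a type and less RNA per cell cannot be told apart in any value below.

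Chaperones bind unfolded or aggregating proteins and help them fold, and the heat shock genes are those whose transcription rises steeply when proteins unfold. The transcription factor Hsf1 drives this rise by binding heat shock elements, inverted repeats of a short unit, near the start of its target genes. Hsp70 proteins hold short stretches of unfolded chains in cycles that Hsp40 and Hsp110 cochaperones pace. Hsp90 proteins finish the folding of kinases and receptors, small heat shock proteins keep unfolded chains soluble without using ATP, and the chaperonin Hsp60 with its lid Hsp10 folds proteins inside mitochondria. In endothelial cells these proteins are known for holding up nitric oxide synthase, receptors of growth factors and the actin cytoskeleton.

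The libraries held 11440169 to 15074909 counts on genes. Endothelial markers set the fractions apart. The summed level of 12 endothelial markers was 732 to 1374 CPM in WT-dim, 230.03 to 316 CPM in AS-dim, 10878 to 16137 CPM in WT-bright and 15912 to 18529 CPM in AS-bright, where CPM is the usual unit of counts scaled to 1 common library total, here after edgeR's TMM scaling over all libraries. Leukocyte markers ran the other way, with 7 markers in both tables summing to 4019.5 to 6481 CPM in WT-dim and 8420 to 10250 CPM in AS-dim against 13.5 to 39.2 CPM in WT-bright and 42.3 to 65.7 CPM in AS-bright. The label of endothelial cells held for the bright libraries while the dim libraries carried more leukocyte than endothelial marker RNA. Below, dim GEC is the study's name for this sorted fraction and does not mean endothelial cells alone. *Ptprc*, which encodes the pan-leukocyte surface protein CD45, had 896 ± 211 CPM (SD, n = 3) in WT-dim and 1370.5 ± 69.2 CPM (SD, n = 3) in AS-dim. *Col4a5*, the gene targeted in the AS mice, had 60.3 ± 19.7 CPM (SD, n = 3) in WT-dim and 2.32 ± 1.16 CPM (SD, n = 3) in AS-dim, and it was low in WT-bright (6.63 ± 2.97 CPM, SD, n = 3) and AS-bright (4.56 ± 1.88 CPM, SD, n = 3) alike.

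The stretch just upstream of a start site shows what an Hsf1 target looks like, and it is printed here for *Hspb1*, the member with the largest fold between the fractions, and for *Hspa1a*, which stands for the inducible Hsp70 pair because the window of *Hspa1b* is nearly the same. Both are 150 bases of the RefSeq promoter windows on GRCm38.p6, upstream of the start and read in the direction of transcription, chr17:34972157-34972306 on the minus strand and chr5:135887769-135887918 on the plus strand, and neither holds an annotated exon. Capitals mark matches to a pair of units of the heat shock element, GAANNTTC or TTCNNGAA on either strand.
Hspa1a: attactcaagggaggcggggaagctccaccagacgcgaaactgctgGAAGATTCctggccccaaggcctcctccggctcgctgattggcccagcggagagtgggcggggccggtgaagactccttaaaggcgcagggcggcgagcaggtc
Hspb1: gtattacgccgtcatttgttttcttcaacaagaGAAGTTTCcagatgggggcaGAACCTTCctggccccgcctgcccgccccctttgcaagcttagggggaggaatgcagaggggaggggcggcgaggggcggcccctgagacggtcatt

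The pair of units in *Hspa1a* began 104 bases before the start, and the window of *Hspa1b* had its match at the same distance, with 296 of 300 bases (98.7%) identical between both windows of 250 bases before and 50 bases from the start. *Hspb1* had 2 pairs, 117 and 97 bases before its start. *Hspd1* and *Hspe1* lie head to head and overlap on chromosome 1, and a longer element stands upstream of *Hspe1*, between its start and the second of the *Hspd1* starts, printed below as 30 bases at chr1:55088053-55088082 on the plus strand, inside an annotated exon of *Hspd1*.
Hspe1: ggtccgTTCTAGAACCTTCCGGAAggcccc
Its capitals are 2 overlapping matches to 3 units in a row, GAANNTTCNNGAA and TTCNNGAANNTTC, and they begin 89 bases before the start of *Hspe1* and 144 bases before the second of the *Hspd1* starts. *Hsph1* had a pair 33 bases before its first start and a run of 3 units 36 bases into the transcript, and the *Dnajb1* window held no match to these letters. Among all 32851 RefSeq windows of this length 15.1% held a pair and 0.603% held 3 units in a row. Windows were found for 7 of the 10 members, and *Hspa8*, *Hsp90aa1* and *Hsp90ab1* had none in the table.

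*Hspa1a* (ENSMUSG00000091971, chromosome 17, 34969190 to 34972156, minus strand of GRCm38) and *Hspa1b* (ENSMUSG00000090877, chromosome 17, 34956436 to 34959238, minus strand) encode the stress-inducible Hsp70. *Hspa1a* was at 458, 770.05 and 139 CPM in the WT-dim libraries of mice 1, 2 and 3 and at 113, 102 and 343 CPM in AS-dim. In the bright fraction it was at 3662, 5445 and 2949 CPM in WT and at 2084.5, 1389 and 3451 CPM in AS. Every bright library lay above every dim library of either genotype, WT mouse 2 and AS mouse 3 were the highest of their groups in both fractions, and WT and AS overlapped. *Hspa1b* repeated this order, with 245, 464 and 135 CPM in WT-dim, 101, 77.7 and 277 CPM in AS-dim, 1978, 4173 and 1911 CPM in WT-bright and 1149.8, 898 and 2816 CPM in AS-bright. Both genes share sequence, since 48.6% of the 100-base windows of *Hspa1a* and 49.9% of those of *Hspa1b* occur in another gene, mostly in each other. The counts are those STAR wrote per gene. The sources used here do not say if reads that match both genes were dropped or assigned, so each level is uncertain. The count of *Hspa1a* was 1.03 to 1.87 times that of *Hspa1b* in all libraries. *Hspa1a* is also overlapped on the other strand by the annotated gene *Gm20481*, and the counted strand is not given in the sources used here.

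*Hspa8* (ENSMUSG00000015656, chromosome 9, 40800984 to 40810087, plus strand) encodes the constitutive Hsp70, Hsc70, which also strips clathrin coats. Its levels were 766, 918 and 512 CPM in WT-dim, 738, 626 and 1191 CPM in AS-dim, 1376.5, 2518 and 1303 CPM in WT-bright and 3353, 2135 and 2516 CPM in AS-bright. AS mouse 1 was highest in the bright fraction and AS mouse 3 in the dim fraction, and the bright libraries lay above the dim libraries within each genotype. Of its windows 62.8% occur in other genes, mainly processed copies, and 2 of these copies, *Gm8355* and *Gm6210*, carried 3.04% to 4.22% of the count of *Hspa8*, so its level is uncertain.

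*Dnajb1* (ENSMUSG00000005483, chromosome 8, 83608193 to 83612653, plus strand) encodes the Hsp40 that delivers substrates to Hsp70 and starts its ATP hydrolysis. It was at 222, 199 and 228 CPM in WT-dim, 138, 102 and 212 CPM in AS-dim, 1308, 1585 and 1066 CPM in WT-bright and 1946, 970.34 and 1283 CPM in AS-bright. The WT-dim libraries lay close together for this gene (216 ± 15.4 CPM, SD, n = 3), and no dim library reached any bright library. *Hsph1* (ENSMUSG00000029657, chromosome 5, 149614287 to 149636376, minus strand), the Hsp110 that exchanges the nucleotide of Hsp70, was at 111, 220.36 and 88.2 CPM in WT-dim, 63.1, 49.6 and 133 CPM in AS-dim, 393, 925 and 309.98 CPM in WT-bright and 330.43, 277 and 659.85 CPM in AS-bright. It followed the order of *Hspa1b* among mice, with WT mouse 2 and AS mouse 3 highest in both fractions. Neither gene shares a 100-base window with another gene.

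*Hsp90aa1* (ENSMUSG00000021270, chromosome 12, 110690605 to 110702728, minus strand), the inducible Hsp90, was at 448, 619 and 327 CPM in WT-dim, 376, 308 and 429 CPM in AS-dim, 908, 2056.5 and 842 CPM in WT-bright and 436, 950.15 and 758 CPM in AS-bright. AS-bright mouse 1 was the lowest bright library and stood just above the highest AS-dim library. *Hsp90ab1* (ENSMUSG00000023944, chromosome 17, 45567775 to 45573271, minus strand), the constitutive Hsp90, was at 2028, 2836 and 1562.5 CPM in WT-dim, 1597.5, 1239.7 and 1563 CPM in AS-dim, 2815, 5409 and 3188 CPM in WT-bright and 2842, 2169 and 4034 CPM in AS-bright. For *Hsp90ab1* WT-dim mouse 2 reached past WT-bright mouse 1, so the WT fractions overlapped while the AS fractions did not. Of the windows of *Hsp90aa1* 47.5% occur in other genes, and none of those of *Hsp90ab1*.

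*Hspb1* (ENSMUSG00000004951, chromosome 5, 135887919 to 135889563, plus strand) encodes the small heat shock protein Hsp25, the mouse form of Hsp27, which also binds actin filaments. It was at 85.7, 129 and 27.1 CPM in WT-dim and at 4.39, 5.56 and 8.86 CPM in AS-dim, from raw counts of 957, 1495 and 319 against 62, 67 and 111. In the bright fraction it was at 925, 1219 and 657 CPM in WT and at 407, 234 and 582 CPM in AS. The 4 groups were in the order WT-bright, AS-bright, WT-dim and AS-dim with no overlap between neighbours, and *Hspb1* was the member in which the groups stood farthest apart. Of its windows 42.7% occur in another gene, and that copy, *Hsp25-ps1*, carried 1.61% to 10.9% of its count.

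*Hspd1* (ENSMUSG00000025980, chromosome 1, 55077835 to 55088243, minus strand), which encodes the mitochondrial chaperonin Hsp60, was at 195, 125 and 85.6 CPM in WT-dim, 66.0, 57.5 and 78.0 CPM in AS-dim, 133, 228 and 84.2 CPM in WT-bright and 54.0, 70.0 and 102 CPM in AS-bright. *Hspe1* (ENSMUSG00000073676, chromosome 1, 55088132 to 55091307, plus strand), which encodes its lid Hsp10, was at 28.7, 22.1 and 13.01 CPM in WT-dim, 11.96, 11.5 and 15.6 CPM in AS-dim, 28.4, 29.7 and 13.5 CPM in WT-bright and 6.09, 8.05 and 14.9 CPM in AS-bright. The fractions overlapped in both genotypes for both mitochondrial genes. Because the genes overlap head to head and the counted strand is not known, reads at their shared start cannot be assigned with certainty. Of their windows 26.9% (*Hspd1*) and 20.4% (*Hspe1*) occur in other genes, and the copy *Hspd1-ps3* carried 1.59% to 3.01% of the count of *Hspd1*.

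**Figure D1:**
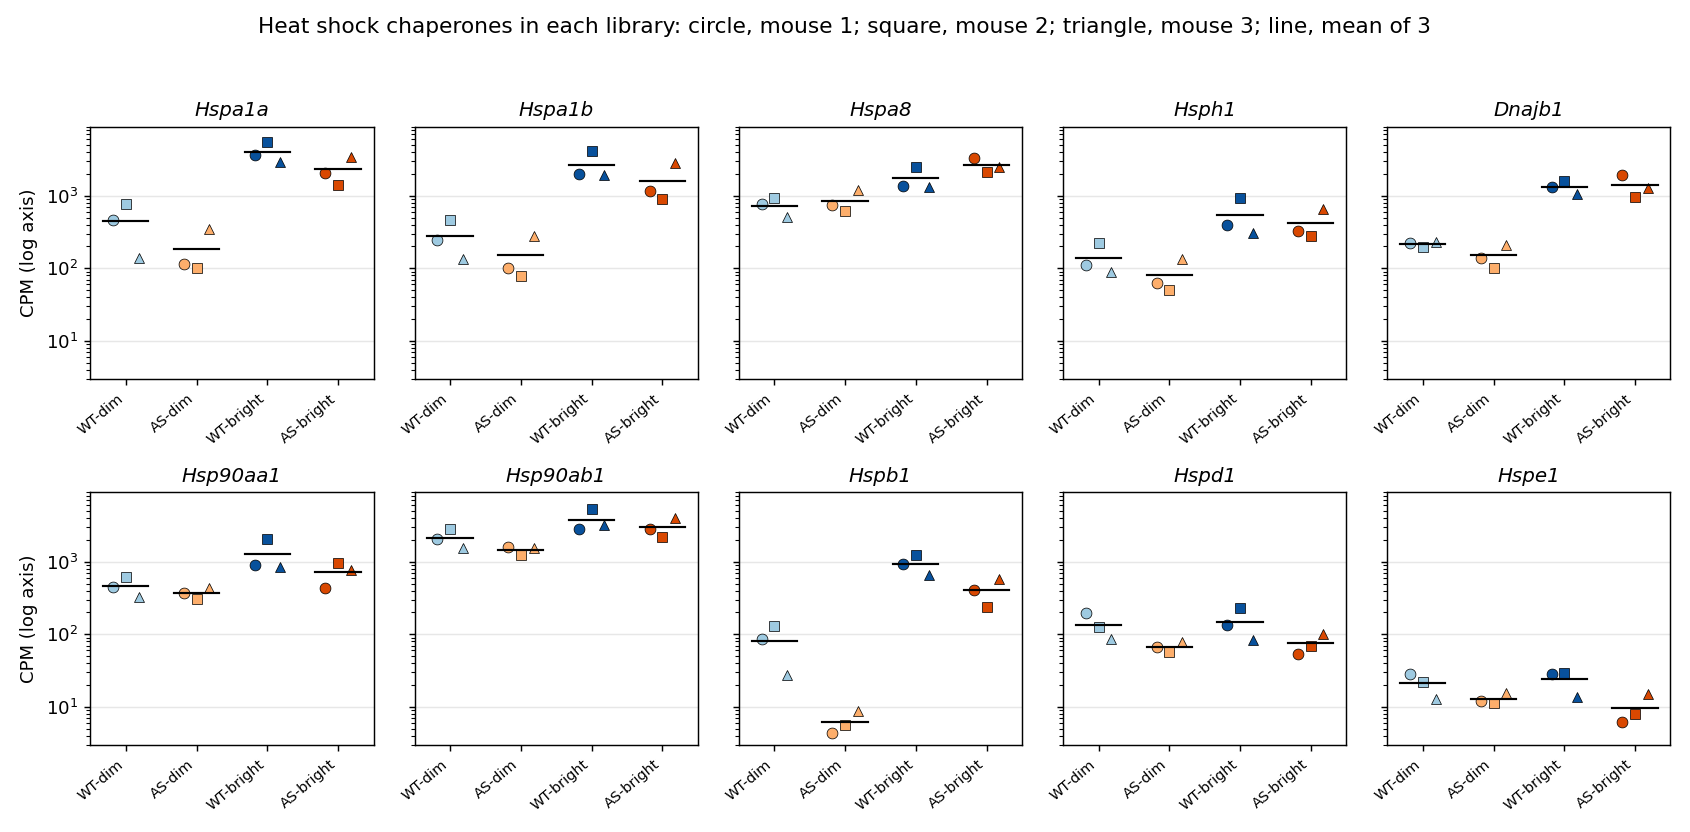
Level of each of the 10 genes in each of the 12 libraries, in CPM on a log axis, with 1 panel per gene, 1 point per library (the shape gives the mouse within its genotype) and a line at the mean of 3. Bright libraries sit above dim libraries for the Hsp70 genes, *Dnajb1*, *Hsph1* and *Hspb1*, while the dim and bright libraries of *Hspd1* and *Hspe1* overlap within each genotype, and *Hspb1* of AS-dim lies below 10 CPM.

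Levels of different genes were compared per kilobase of merged exons. *Hsp90ab1* led the dim libraries, with 714 ± 215 CPM per kb (SD, n = 3) in WT-dim and 489 ± 65.8 CPM per kb (SD, n = 3) in AS-dim, and its libraries lay clear of *Hspa8*, the next in order. In WT-bright the inducible *Hspa1a* came first with 1354 ± 433 CPM per kb (SD, n = 3), ahead of *Hsp90ab1* with 1268 ± 468 CPM per kb (SD, n = 3), and the libraries of both overlapped. The longest coding transcript of *Hsp90ab1* has 2520 bases against 2999 in merged exons, while *Hspa1a* has 2967 in both. Their order therefore depends on the length used. *Hspb1* stood last in AS-dim (6.08 ± 2.25 CPM per kb, SD, n = 3) and at rank 4 in WT-bright (906 ± 273 CPM per kb, SD, n = 3). *Hspe1* stood last in the other 3 groups. Of the 9 pairs of neighbours in each order, the libraries overlapped in 7 in WT-dim, 5 in AS-dim, 6 in WT-bright and 7 in AS-bright, so most adjacent places in the order are not set apart by the spread between mice. Together the 10 genes took 0.451% ± 0.176 (SD, n = 3) of the counts in WT-dim, 0.335% ± 0.0795 in AS-dim, 1.74% ± 0.66 in WT-bright and 1.24% ± 0.263 in AS-bright.

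The first comparison asks how the brightest GEC differ from the dim GEC within a genotype. In WT mice 7 of the 10 chaperones were higher in bright GEC, led by *Hspb1* (12.4-fold), *Hspa1b* (10.1-fold), *Hspa1a* (9.4-fold) and *Dnajb1* (6.49-fold), followed by *Hsph1* (4.12-fold), *Hsp90aa1* (2.90-fold) and *Hspa8* (2.52-fold). In AS mice 8 of 10 were higher, the same 7 and *Hsp90ab1*. The mitochondrial pair passed the test in neither genotype. Over all genes tested in the same fits, 13.8% in WT and 28.6% in AS were called higher in bright GEC at an adjusted p under 0.05 (Benjamini-Hochberg adjustment, quasi-likelihood test of edgeR), so the share among the chaperones lay above this background in both genotypes. The log2 fold changes of the 10 had medians of 1.79 (WT) and 2.03 (AS), against -0.04 and 0.02 over all genes tested.

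By role, the inducible Hsp70 genes rose in bright GEC, on the log2 scale, by 3.23 (*Hspa1a*, adjusted p = 0.00299 by edgeR, standard error 0.56) and 3.34 (*Hspa1b*, adjusted p = 0.00134 by edgeR, standard error 0.51) in WT and by 3.65 (adjusted p = 0.000190 by edgeR, standard error 0.51) and 3.43 (adjusted p = 0.000510 by edgeR, standard error 0.56) in AS. With the counts of both genes summed, which does not depend on how the counted reads were split between them, it came to 3.28 in WT and to 3.56 in AS. *Hspa8* rose less, by 1.33 (adjusted p = 0.0173 by edgeR, standard error 0.33) in WT and 1.67 (adjusted p = 0.000576 by edgeR, standard error 0.28) in AS. The cochaperones followed the inducible genes. *Dnajb1* had 2.70 (adjusted p = 7.79e-05 by edgeR, standard error 0.24) in WT and 3.24 (adjusted p = 2.15e-05 by edgeR, standard error 0.34) in AS, and *Hsph1* had 2.04 (adjusted p = 0.0135 by edgeR, standard error 0.48) and 2.39 (adjusted p = 0.000797 by edgeR, standard error 0.42).

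Of the cytosolic Hsp90 genes, *Hsp90aa1* rose by 1.54 in WT (adjusted p = 0.0191 by edgeR, standard error 0.39) and 0.97 in AS (adjusted p = 0.0121 by edgeR, standard error 0.27). The AS call was lost in 1 fit of all 12 libraries (0.95, adjusted p = 0.0518 by edgeR). *Hsp90ab1* had 0.92 in WT (adjusted p = 0.0766 by edgeR, standard error 0.33), which missed the threshold, and 1.06 in AS (adjusted p = 0.00425 by edgeR, standard error 0.24). With the mouse as a replicate block, which uses that both fractions came from the same animals, *Hsp90ab1* passed in WT too (0.90, adjusted p = 0.00736 by edgeR, against a range of 0.00736 to 0.225 over the alternatives). It also passed, narrowly, with the likelihood ratio test of edgeR (0.92, adjusted p = 0.0475) and in 1 fit of all 12 libraries (0.83, adjusted p = 0.0499 by edgeR). *Hspb1* had 3.63 in WT (adjusted p = 0.00106 by edgeR, standard error 0.53) and 6.05 in AS (adjusted p = 9.01e-07 by edgeR, standard error 0.41), the largest log2 fold change among the members in each genotype. The values of *Hspd1* were 0.23 (standard error 0.40) in WT and 0.19 (standard error 0.24) in AS, and those of *Hspe1* were 0.26 (standard error 0.43) and -0.41 (standard error 0.35). By edgeR their adjusted p lay between 0.349 and 0.707.

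Within single mice the direction held. The bright library exceeded the dim library of the same animal in 6 of 6 mice for 8 genes, in 3 of 6 for *Hspd1* and in 2 of 6 for *Hspe1*. The share of all genes with bright above dim in 6 of 6 mice was not counted. The log2 difference within a mouse ran from 2.82 to 4.40 for *Hspa1a* in WT and from 3.33 to 4.20 in AS, and for *Hspb1* from 3.24 to 4.59 in WT and from 5.36 to 6.49 in AS, so the ranges of WT and AS overlapped for *Hspa1a* and not for *Hspb1*. They did not overlap for *Hsph1* (1.81 to 2.07 in WT, 2.31 to 2.48 in AS) and *Hspe1* (-0.02 to 0.42 in WT, -0.96 to -0.07 in AS) either, and they overlapped for the other 7 members. Over all genes 24.5% had ranges that did not overlap, so 3 of 10 lay near this background. Every bright library lay above every dim library for 7 members in WT and 8 in AS, where 20.2% and 31.4% of all genes tested did so. Single libraries moved the size of some called folds by over 1.5 times. Without AS-dim mouse 3 the AS values of *Hspa1a* and *Hspa1b* were 4.41 and 4.17, without AS-bright mouse 3 that of *Hspa1b* was 2.75, and in WT *Hspa1a* was 3.86 without WT-dim mouse 2 and *Hsph1* was 1.44 without WT-bright mouse 2. In WT the calls of *Hspa8* and *Hsp90aa1* rested on single libraries: without WT-bright mouse 2 their log2 fold changes were 0.98 and 1.02 and without WT-dim mouse 3 they were 1.14 and 1.35, with adjusted p between 0.0534 and 0.0630 by edgeR.

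**Figure D2:**
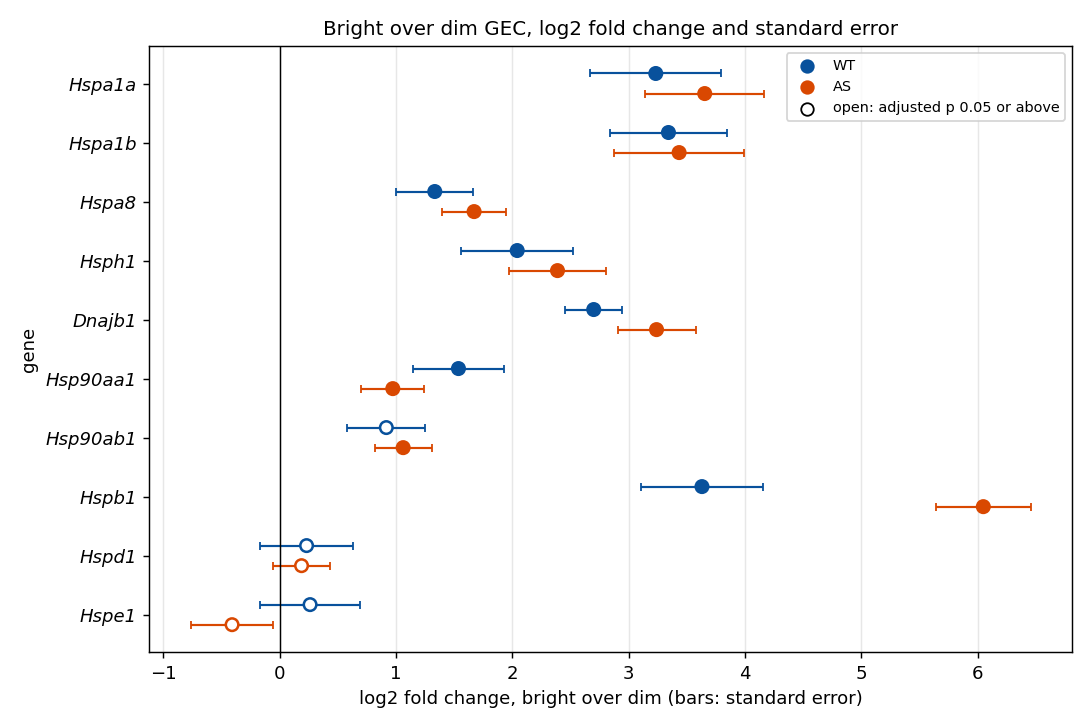
Log2 fold change of bright over dim GEC (x axis) for each gene (y axis) in WT and AS, with bars of 1 standard error, filled points for an adjusted p under 0.05 and open points otherwise. *Hspb1*, the inducible Hsp70 genes and *Dnajb1* lie farthest to the right, *Hspd1* and *Hspe1* lie at 0 within about their standard error, and *Hspb1* is the gene with the widest gap between WT and AS (3.63 and 6.05).

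The fractions differ in much more than chaperones, and these values stand beside the result. Of the endothelial markers 12 of 12 were called higher in bright GEC in both genotypes (medians 3.67 in WT and 6.29 in AS, log2), and 7 of 7 tested leukocyte markers were called lower, with medians of -8.03 and -7.76. Mesangial and mural markers were called higher for 3 of 6 tested in WT and 6 of 6 in AS. Podocyte markers were mixed in WT, where *Podxl* alone of 6 was called higher (1.85) and 3 were called lower. In AS 5 of 6 were called higher. The immediate-early genes, which are transcribed within minutes of a stimulus to the cell, also moved: 12 of 15 were called higher in bright GEC of WT (median 1.67), and in AS 11 were called higher and 2 lower (median 0.93). Their summed level was 11582 to 14061 CPM in WT-dim, 14729 to 17018 CPM in AS-dim, 32314 to 44585 CPM in WT-bright and 29894 to 44927 CPM in AS-bright. The part of these differences in the chaperone result was not tested.

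Other chaperone families were looked at through lists chosen by function, and their counts stand against the 13.8% (WT) and 28.6% (AS) of all genes called higher in bright GEC. The 8 subunits of the TRiC chaperonin, which folds actin and tubulin in the cytosol, stayed near the middle of all genes, at medians of -0.01 (WT, where edgeR, DESeq2 and an unadjusted p under 0.05 called 0) and -0.04 (AS), and 1 call (*Cct8*, lower in AS-bright, -0.57, adjusted p = 0.0113 by edgeR). Of 18 cytosolic cochaperones and partners of Hsp70 and Hsp90, 3 were called higher in bright GEC of WT, between *Bag3*, a nucleotide exchange factor of Hsp70 (3.20, adjusted p = 0.00641 by edgeR), and *Dnaja1*, an Hsp40 (1.84, adjusted p = 0.00306 by edgeR). In AS 5 were called higher and 2 lower, from *Bag3* (3.86, adjusted p = 3.03e-06 by edgeR) down to *Hspa4l*, an Hsp110 (-1.94, adjusted p = 0.000188 by edgeR). Both counts lay near the background, and the medians of this list were 0.35 and 0.42.

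Among 10 chaperones of the endoplasmic reticulum 1 was called higher in WT, a share near the background, and it was *Dnajb9*, an Hsp40 that works with BiP (1.48, adjusted p = 0.00503 by edgeR). In AS 5 were called higher and 1 lower, from *Dnajb9* (1.62, adjusted p = 8.17e-05 by edgeR) to *Sdf2l1* (-1.11, adjusted p = 0.0111 by edgeR). Of the 7 mitochondrial chaperones and proteases 0 were called by edgeR in WT, with 1 at an unadjusted p under 0.05 and 1 called by DESeq2. In AS 2 were called higher, the Hsp40 *Dnaja3* (1.27, adjusted p = 0.000416 by edgeR) and the protease subunit *Clpp* (0.999, adjusted p = 0.0256 by edgeR). The list of other Hsp70 genes had 3 of 5 tested called higher in each genotype, with *Hspa12b*, a distant relative known from endothelium, at 4.34 (adjusted p = 0.000299 by edgeR) in WT and 7.40 (adjusted p = 8.92e-08 by edgeR) in AS. The lowest called were *Hspa12a* in WT (1.71, adjusted p = 0.00217 by edgeR) and *Hspa2* in AS (2.73, adjusted p = 1.99e-05 by edgeR).

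Of the small heat shock proteins other than *Hspb1* only *Cryab* and *Hspb8* passed the filter on low counts in these fits. *Cryab*, which encodes αB-crystallin, was called higher in bright GEC of AS (0.81, adjusted p = 0.0171 by edgeR), and 0 of 2 were called in WT by edgeR, at an unadjusted p under 0.05 or by DESeq2. Of the 4 heat shock transcription factors and their binding protein, *Hsbp1*, which binds Hsf1, was called higher in AS (0.80, adjusted p = 0.00597 by edgeR), and 0 of 4 were called in WT by edgeR, at an unadjusted p under 0.05 or by DESeq2. Among the immediate-early genes *Socs3*, which dampens cytokine signals, was the highest called in WT (3.08, adjusted p = 6.28e-05 by edgeR) and in AS (3.25, adjusted p = 1.72e-06 by edgeR). The lowest called were the transcription regulators *Ier2* in WT (1.32, adjusted p = 0.00195 by edgeR) and *Klf6* in AS (-1.16, adjusted p = 0.00854 by edgeR).

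**Figure D3:**
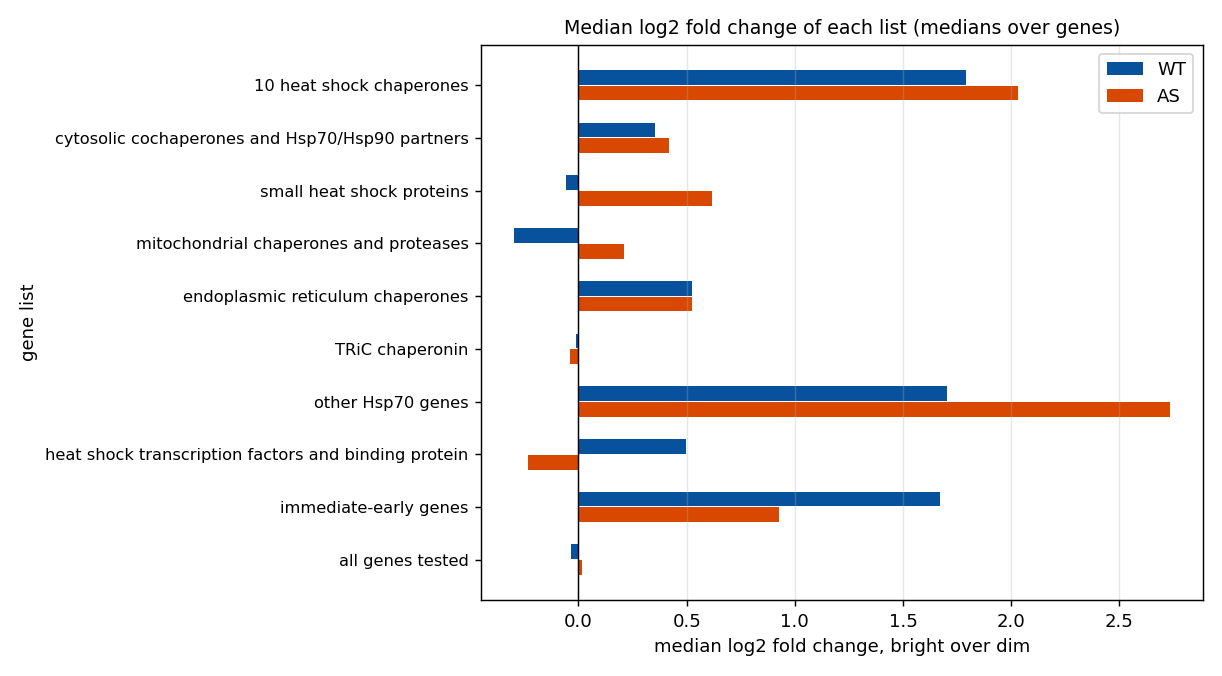
Median log2 fold change of bright over dim GEC (x axis) over the genes tested in each list (y axis), in WT and AS, with all genes tested as the last row; bars start at 0 and carry no error because they are medians over genes. The 10 heat shock chaperones (1.79 and 2.03), the other Hsp70 genes (1.71 and 2.73) and the immediate-early genes (1.67 and 0.93) stand apart from the TRiC subunits (-0.01 and -0.04) and from all genes (-0.04 and 0.02).

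The next comparison asks how AS and WT libraries differed within each fraction. In dim GEC *Hspb1* was lower in AS, with a log2 fold change of -3.70 or 12.99-fold (adjusted p = 0.0206 by edgeR, standard error 0.59), and it was the 1 chaperone of 10 that passed the test, where 6.42% of all genes tested were called lower in AS. *Hspd1* was called lower too by DESeq2 (adjusted p = 0.0262), by the likelihood ratio test of edgeR (adjusted p = 0.0292) and without WT-dim mouse 3 (adjusted p = 0.0282 by edgeR), and over the alternatives its adjusted p ran from 0.0262 to 0.212. Over all genes DESeq2 called 10.6% lower in AS and the likelihood ratio test 9.69%. *Hsp90ab1* was called without WT-dim mouse 3 (-0.74, adjusted p = 0.049988 by edgeR). In bright GEC 0 of 10 passed by edgeR, while 5 had an unadjusted p under 0.05 (as did 21.8% of all genes tested), DESeq2 called 3 (*Hspb1*, *Hspd1* and *Hspe1*, all lower in AS) and edgeR's likelihood ratio test called 2 (*Hspb1* and *Hspe1*). Over all genes tested 0.452% were called in bright GEC by the quasi-likelihood test, while DESeq2 called 5.03% lower in AS and the likelihood ratio test 4.07%. Of the 10 log2 fold changes 9 were below 0 in dim GEC and 8 in bright GEC, with a median of -0.75 and -0.83 against -0.02 and -0.03 over all genes tested.

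The fall of *Hspb1* in dim GEC kept its direction in each alternative, from -4.11 to -3.22, and its call was lost without AS-dim mouse 1 (-3.51, adjusted p = 0.113 by edgeR) or without AS-dim mouse 3 (-4.02, adjusted p = 0.107 by edgeR), where 0 genes and 1 gene of all tested were called (at an unadjusted p under 0.05, 2972 and 3016). Every AS-dim library lay below every WT-dim library for *Hspb1* and *Hspd1*, as it did for 16.2% of all genes tested (3 against 3 libraries cannot give an exact permutation p below 0.1). In bright GEC *Hspb1* was the 1 member with every AS library below every WT library, where 10.9% of all genes tested were so placed. Its log2 fold change there was -1.26 (adjusted p = 0.0839 by edgeR, standard error 0.33). The mitochondrial pair in bright GEC had -1.37 for *Hspe1* (adjusted p = 0.111 by edgeR, standard error 0.41), the lowest value of the 10 there, and -1.03 for *Hspd1* (adjusted p = 0.137 by edgeR, standard error 0.35). In dim GEC *Hspd1* had -1.02 (adjusted p = 0.0802 by edgeR, standard error 0.31) and *Hspe1* -0.72 (adjusted p = 0.266 by edgeR, standard error 0.37).

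The inducible Hsp70 genes missed the threshold in both fractions. *Hspa1a* had -1.30 (adjusted p = 0.244 by edgeR, standard error 0.64) in dim and -0.86 (adjusted p = 0.186 by edgeR, standard error 0.35) in bright GEC, and *Hspa1b* had -0.90 (standard error 0.56) and -0.79 (standard error 0.43). These values rested on single libraries. In dim GEC *Hspa1a* ran from -0.73 without WT-dim mouse 2 to -2.08 without AS-dim mouse 3, and *Hspa1b* from -0.38 to -1.65 without the same libraries. In bright GEC *Hspa1b* ran from -0.34 without WT-bright mouse 2 to -1.46 without AS-bright mouse 3, and *Hspa1a* from -0.59 without AS-bright mouse 2 to -1.28 without AS-bright mouse 3. *Hspa8* was the 1 member with a value above 0 in both fractions, 0.21 (standard error 0.29) in dim and 0.57 (standard error 0.30) in bright GEC. Its dim value was -0.11 without AS-dim mouse 3. The Hsp90 genes had -0.34 and -0.88 (*Hsp90aa1*) and -0.56 and -0.39 (*Hsp90ab1*), in dim and bright GEC, and that of *Hsp90aa1* in bright GEC ran from -0.36 without WT-bright mouse 2 to -1.14 without AS-bright mouse 2. The cochaperone values were -0.78 and -0.42 for *Hsph1* and -0.53 and 0.03 for *Dnajb1*. In bright GEC *Hsph1* was at 0.19 without WT-bright mouse 2, and *Dnajb1* ran from -0.30 without AS-bright mouse 1 to 0.24 without AS-bright mouse 2. A p that misses the threshold does not show that these genes were equal in WT and AS.

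Marker RNA of other cells moved with the AS comparison in dim GEC. There 8 of 11 endothelial, 7 of 12 proximal tubule and 3 of 6 podocyte markers tested were called lower in AS, with medians of -2.21, -4.41 and -1.80, and 2 of 11 leukocyte markers were called higher (median 0.11). The summed level of 12 proximal tubule markers was 1372 to 6242 CPM in WT-dim and 13.8 to 364 CPM in AS-dim, and in the bright fraction it was 405 to 2539 CPM in WT and 48.4 to 468 CPM in AS. In bright GEC 0 of 12 endothelial markers were called by edgeR (median 0.39), while 5 had an unadjusted p under 0.05 and DESeq2 called 1. How far these shifts enter the value of *Hspb1* was not tested.

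**Figure D4:**
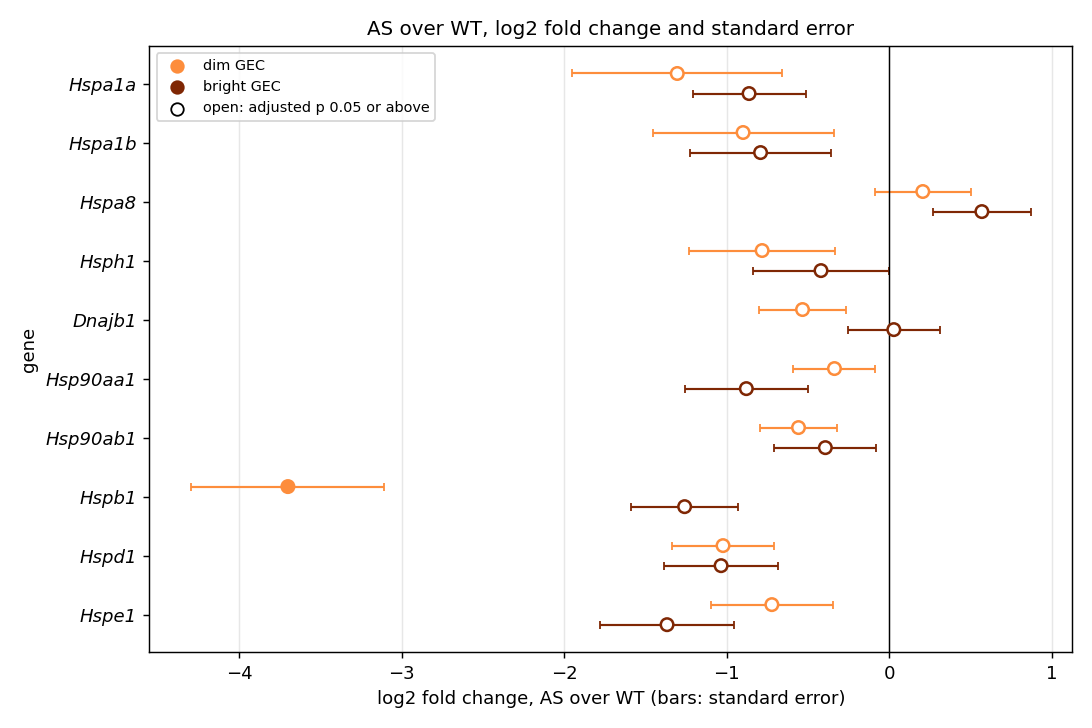
Log2 fold change of AS over WT (x axis) for each gene (y axis) in dim and bright GEC, with bars of 1 standard error, filled points for an adjusted p under 0.05 and open points otherwise. *Hspb1* in dim GEC (-3.70) is the 1 filled point, most other points lie between -1.4 and 0, and *Hspa8* lies above 0 in both fractions (in dim GEC not without AS-dim mouse 3).

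Among the related lists 5 of 69 genes tested passed by edgeR in dim GEC, where 8.63% of all genes tested were called in either direction, so the lists lay near the background. At an unadjusted p under 0.05 there were 21 (26.3% of all genes tested were). DESeq2 called 13 (2213 of 14565 over all genes) and the likelihood ratio test 7 (1840 of 14637). *Cryab* was lower in AS (-2.02, adjusted p = 0.0142 by edgeR), as were *Dnaja3* (-1.28, adjusted p = 0.0277 by edgeR), *Hspa12a* (-1.56, adjusted p = 0.0268 by edgeR) and *Hspa12b* (-2.57, adjusted p = 0.0279 by edgeR), while the immediate-early gene *Junb*, which encodes a subunit of the AP-1 transcription factor, was higher (1.38, adjusted p = 0.0142 by edgeR). The cytosolic cochaperones, endoplasmic reticulum chaperones, TRiC subunits and heat shock factors had medians of -0.29, -0.14, 0.09 and 0.06 and 0 calls by edgeR, with 2, 2, 2 and 0 genes at an unadjusted p under 0.05. Of these lists DESeq2 called 2 cochaperones and 1 TRiC subunit, and the likelihood ratio test called 1 cochaperone. In bright GEC 0 of the 69 passed by edgeR, with 15 at an unadjusted p under 0.05, close to the share over all genes given above. DESeq2 called 4 there (1117 of 13231 over all genes). *Junb* had 723 ± 100.3 CPM (SD, n = 3) in WT-dim and 1903 ± 31.0 CPM (SD, n = 3) in AS-dim, so its direction was opposite to that of *Hspb1* in the same libraries.

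Whether the AS effect differed between the fractions was tested as an interaction in 1 fit of all 12 libraries. By edgeR 0 of the 10 chaperones passed, against 3.82% of all genes tested, with 1 member at an unadjusted p under 0.05, where 18.6% of all genes tested were. That member was *Hspb1*, with 2.49 (adjusted p = 0.0665 by edgeR, standard error 0.70), the amount by which its log2 fold change of AS over WT was less negative in bright than in dim GEC. With the mouse as a replicate block *Hspb1* passed (2.27, adjusted p = 0.0163 by edgeR), as it did with DESeq2 (2.43, adjusted p = 0.0129) and with edgeR's likelihood ratio test (adjusted p = 0.00496) and without WT mouse 3 (2.71, adjusted p = 0.0200 by edgeR), and over all alternatives its adjusted p ran from 0.00496 to 0.32. Over all genes DESeq2 called 7.91% and the likelihood ratio test 6.92%. The other 9 members had values between -0.59 and 0.61, and the median of the 10 was 0.31 against 0.14 over all genes. From the related lists 3 of 69 genes passed, *Hspa12b* (3.12, adjusted p = 0.0281 by edgeR), *Hspa12a* (1.82, adjusted p = 0.0107 by edgeR) and *Dnaja3* (1.38, adjusted p = 0.0406 by edgeR), and 9 of 12 endothelial and 6 of 6 podocyte markers passed in the same direction.

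Mice of 1 group differed from each other in the chaperones together. The mean deviation of the 10 genes from their group means, in log2 CPM, was 0.49 in the dim and 0.60 in the bright library of WT mouse 2 and 0.55 and 0.47 in those of AS mouse 3, and it was -0.66 and -0.46 in WT mouse 3 and -0.38 and -0.34 in AS mouse 2. AS mouse 1 had -0.17 and -0.13, and WT mouse 1 was the 1 animal whose libraries fell on either side, with 0.17 and -0.14. Over all genes the mean deviation of a library was between -0.13 and 0.08, which scaling and averaging over many genes hold near 0. It does not show how far other sets of 10 genes deviate. WT mouse 2 was the highest of its group for 7 of 10 members in dim and 10 of 10 in bright GEC, and AS mouse 3 for 9 and 7.

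**Figure D5:**
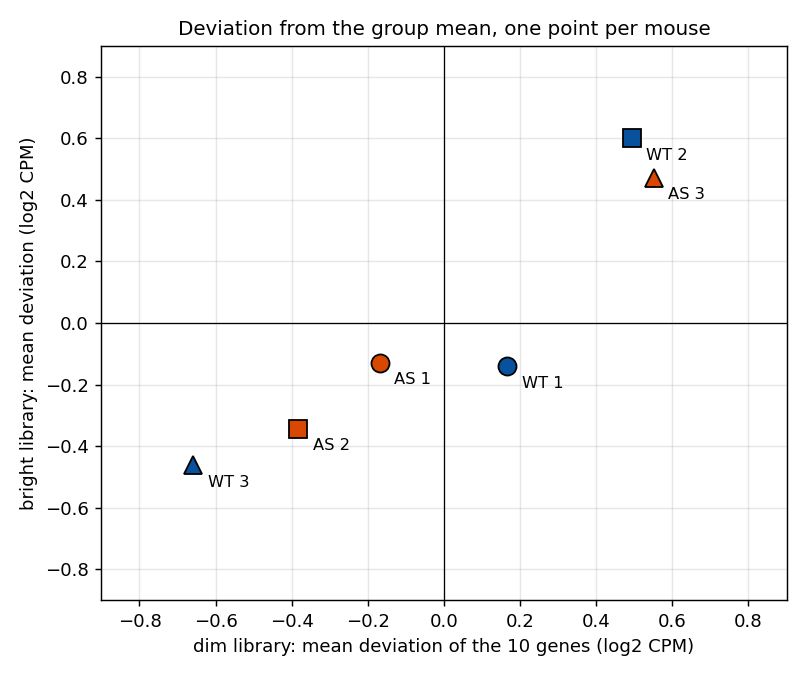
Mean deviation of the 10 genes from their group mean in the dim library (x axis) and the bright library (y axis) of each mouse, in log2 CPM; colour gives the genotype (blue, WT; orange, AS) and shape the mouse. In 5 of 6 mice both libraries fall on the same side of 0, with WT 2 and AS 3 at the upper right and WT 3 and AS 2 at the lower left.

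Other lists also differed between these mice. The immediate-early genes had mean deviations of -0.12 and -0.19 in the dim and bright libraries of WT mouse 1, 0.17 and 0.21 in WT mouse 2 and -0.05 and -0.02 in WT mouse 3. WT mouse 2 was thus highest for both lists while mouse 1 was lowest for the immediate-early genes and mouse 3 for the chaperones. In AS they had 0.02 and -0.12 in mouse 1, -0.11 and -0.22 in mouse 2 and 0.08 and 0.34 in mouse 3, the order of the chaperones in both fractions. Summed proximal tubule markers in AS ran in the opposite order, with 31.9, 364 and 13.8 CPM in the dim and 70.8, 468 and 48.4 CPM in the bright libraries of mice 1, 2 and 3. In WT they were highest in mouse 1 (6242 CPM in dim and 2539 CPM in bright GEC). Summed endothelial markers in WT-dim followed the chaperones, with 1217.5, 1374 and 732 CPM, and in the other 3 groups their order differed from that of the chaperones. Leukocyte markers ran opposite to the chaperones in WT-dim (4782, 4019.5 and 6481 CPM) and in their order in AS-dim (8494.5, 8420 and 10250 CPM). The summed cytosolic cochaperones followed the order of the chaperones in all 4 groups. They had 1439, 1702 and 1143.5 CPM in WT-dim and 1179.6, 1139.6 and 1332 CPM in AS-dim. In the bright fraction they had 2036, 3009.5 and 1804 CPM in WT-bright and 1693, 1683 and 1987 CPM in AS-bright. The part of these lists in the spread of the chaperones was not tested. Over the 45 pairs of members, Pearson's r of the deviations from group means had a median of 0.68, with 44 pairs above 0, and r of log2 CPM over the 12 libraries had a median of 0.831. These correlations are a description over libraries that share mice, fractions and sequencing depth.

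For each member the 3 genes most alike in log2 CPM over the 12 libraries were looked up among 15083 others. *Hspa1a* and *Hspa1b* were nearest to each other (r = 0.991), *Hspa1b* was followed by *Hsph1* (r = 0.984), and *Hspa1a* by *Wrb* (0.979) and *Snai2* (0.974). *Wrb* was the third for *Hspa1b* (0.97). For *Hsph1* they were *Hspa1b* (0.984), *Hspa1a* (0.967) and *Ptges3*, the Hsp90 cochaperone p23 (0.963). *Hspd1* and *Hspe1* had each other among their 3 (r = 0.907), beside *AC162801.1* (0.934 and 0.919) and *Zfp952* for *Hspe1* (0.887). The genes nearest to *Dnajb1* were *Cr1l* (0.989), *Slc10a6* (0.986) and *Atf3* (0.982), an immediate-early transcription factor, and the nearest other member, *Hspa1b*, ranked 545.

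Several nearest genes were copies that share 100-base windows with the member, so that reads from these windows cannot be assigned with certainty. They were *Gm8355* (0.997) and *Gm6210* (0.995) for *Hspa8*, *Gm5844* (0.984) and *Gm12346* (0.981) for *Hsp90aa1*, *Hsp25-ps1* (0.996) for *Hspb1* and *Hspd1-ps3* (0.947) for *Hspd1*, as well as *Hspa1a* and *Hspa1b* for each other. The other nearest genes were *Gm8337* (0.989) for *Hspa8*, *Dnaja1* (0.945) for *Hsp90aa1*, *Prickle1* (0.993) and *Endou* (0.986) for *Hspb1*, and *Gm13498* (0.978), *Gm6368* (0.971) and *Hsph1* (0.95) for *Hsp90ab1*. With *Hspa8* 7 genes share windows and only those that share most were named, so *Gm8337* may be a copy too. Whether *Gm13498* and *Gm6368* share stretches shorter than 100 bases with *Hsp90ab1* was not checked.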

How the data were processed

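The 10 members and the gene lists were chosen with earlier results of these data known. RNA of dim and bright tdT GEC from 6 mice gave 12 libraries (KAPA stranded, poly-A, paired reads). The authors aligned the reads with STAR 2.6.0c to GRCm38.p5 with Gencode M16 and deposited its count of reads per gene without normalization, in 1 table per fraction. The deposited RPKM values, computed by the authors per kilobase of gene length, were read and not tested, because the deposited lengths of 8 members exceed the merged exon length of Gencode M21 (1.18 to 2.96 times). The deposited fold changes and p-values are the authors' own comparisons and were not used. Columns of other samples numbered 0.

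Genes of both fractions were joined by Ensembl identifier, and the members were found by symbol. Coordinates come from Gencode M21 (GRCm38), and promoter windows from RefSeq on GRCm38.p6. ERCC spike-ins (0.0286% to 0.282% of counts) were left out. Each comparison was fitted on the counts of its 6 libraries (12 for the interaction) with edgeR 4.0.16 in R 4.3.3: TMM normalization, filterByExpr, the quasi-likelihood test of edgeR's version 4 fit, Benjamini-Hochberg adjustment over all genes tested and a threshold of 0.05. Standard errors are the log2 fold change over the square root of its F statistic. WT-dim, WT-bright, AS-dim and AS-bright each enter 3 of the 5 comparisons, so the comparisons share libraries. The fits were tested on simulated data with known changes before use. CPM use TMM over 12 libraries and log2 CPM a prior count of 2.

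The fractions of a mouse are paired through the animal number in the sample labels. Deviations from group means correlated across genes by 0.0796 to 0.385 within a mouse, with means of 0.197 (WT) and 0.213 (AS) against -0.0984 and -0.105 between mice. Replicate pairs differed by a chi-square of 32.2 to 114 per degree of freedom, so none was the same library. Alternatives were DESeq2 1.42.0, RLE in place of TMM, no scaling beyond library size, the likelihood ratio test of edgeR, all genes with any count, all 12 libraries in 1 fit, a replicate block, *Hspa1a* and *Hspa1b* summed, each replicate left out, TMM within each table and, chosen after seeing the data, edgeR's version 3 fit. Named were all members in every comparison, in each list the genes with the highest and lowest log2 fold change among those past the threshold, the 3 genes most alike to each member, and *Tek* and *Col4a5*; *Tek* had 191 ± 65.4 CPM (SD, n = 3) in WT-bright and 16.0 ± 4.92 CPM (SD, n = 3) in WT-dim, 250.6 ± 6.97 CPM (SD, n = 3) in AS-bright and 2.64 ± 0.37 CPM (SD, n = 3) in AS-dim.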

Additional observations from a re-analysis of the deposited data

How the results depend on the processing

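Of the counts of chaperones called, those of bright over dim GEC stayed within 1.5 times of 7 in WT (5 to 8) and of 8 in AS (7 to 8). For AS over WT in dim GEC (1 called), DESeq2 and the likelihood ratio test each called 2, and with a library left out the count ran from 0 to 3. In bright GEC (0 called) DESeq2 called 3, the likelihood ratio test 2 and each fit with a library left out 0. The interaction (0 called) gave 1 with DESeq2, 1 with the likelihood ratio test, 1 with the replicate block and 0 to 1 with a mouse left out (1 without WT mouse 3). The block changed no other call of bright over dim GEC than that of *Hsp90ab1* in WT. For AS over WT the same numbers are different mice (correlations of deviations -0.151 to 0.125); with the replicate block 1 chaperone was called in dim and 0 in bright GEC.

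The count over all genes moved further. In dim GEC the 1263 calls of AS over WT became 2213 with DESeq2, 582 with edgeR's version 3 fit, 494 with the replicate block, 2143 in 1 fit of all 12 libraries and 0 to 1825 with a library left out (2972 at an unadjusted p under 0.05 where 0 passed). In bright GEC the 65 became 1117 with DESeq2, 887 with the likelihood ratio test, 0 with the version 3 fit (2906 at an unadjusted p under 0.05), 39 with every gene kept, 16 with the replicate block, 140 in 1 fit and 0 to 281 with a library left out (1814 or more at an unadjusted p under 0.05). The 576 of the interaction became 1186, 1044 and 882 with DESeq2, the likelihood ratio test and the block, and 0 to 627 with a mouse left out (1817 at an unadjusted p under 0.05 where 0 passed); its median over all genes went from 0.14 to -0.03 with library sizes alone. What caused these moves was not tested.

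Signs turned only where the value was not called. For AS over WT, *Dnajb1* in bright GEC became -0.022 with library sizes alone and -0.011 with the replicate block. In the interaction *Hspd1* became -0.027 with RLE and with DESeq2 and -0.15 with library sizes alone, and *Hspa1b* -0.0016 with library sizes alone. With 1 library or mouse left out, the values that turned ran for AS over WT from -0.11 to 0.36 (*Hspa8*, dim), -0.90 to 0.19 (*Hsph1*, bright) and -0.30 to 0.24 (*Dnajb1*, bright), for bright over dim GEC from -0.20 to 0.57 (*Hspd1*, WT) and -0.11 to 0.39 (*Hspd1*, AS), and in the interaction from -0.047 to 0.30 (*Hspa1b*), -0.028 to 0.76 (*Hspa8*), -0.037 to 0.30 (*Hsp90ab1*) and -0.51 to 0.54 (*Hspd1*). TMM within each table moved 40 of 40 group means by less than 1 SD.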
